A study of Mus musculus with 6 samples.

Results

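The insulin-like growth factor (IGF) genes were followed in RNA from primary retinal pigment epithelium (RPE) cells of the mouse eye. The RPE is the pigmented cell layer behind the photoreceptors. The 10 genes form a list of symbols, drawn up with earlier results of these data known. It holds the ligands Igf1 and Igf2, the receptors Igf1r, Insr and Igf2r, and the binding proteins Igfbp2, Igfbp3, Igfbp4, Igfbp5 and Igfbp6. All 10 were found among the 28043 genes of the tables. The series holds 3 libraries labelled Normal and 3 labelled PVR, for proliferative vitreoretinopathy, a scarring disorder of the injured eye; its title speaks of the traumatic form. Both groups were mouse primary RPE cells sequenced as polyA RNA, while strain, age, sex, the way PVR was induced and the number of animals behind a library are not given in the labels. No label states that libraries of a group came from separate animals or cultures, so each p-value reflects the spread among these libraries, and that spread may be technical only.

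IGF1 and IGF2 are small secreted hormones related to insulin. Both signal through the IGF1 receptor, a tyrosine kinase that feeds the PI3K, AKT and mTOR pathway, and IGF2 also binds a splice form of the insulin receptor. The IGF2 receptor, which is also the mannose 6-phosphate receptor that sorts lysosomal enzymes, takes IGF2 up for degradation and does not pass on the growth signal. Secreted binding proteins hold most IGF outside cells, and proteases release it by cutting them.

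The libraries held 15269983 to 19173187 reads. Values are normalised read counts, that is reads divided by a size factor of the library, and the level of 3 reads, which a count of 0 allows, lay between 2.72 and 3.42 of them. Over the 15766 genes tested, libraries of the same group correlated at 0.969 to 0.979. Correlations with the Normal libraries were 0.929 to 0.935 for PVR replicate 3 and 0.880 to 0.893 for the other PVR libraries. In single markers of other cell types Normal replicate 2 was far above its group, with Zic1 at 347 and Fbln1 at 2244 against at most 9.06 and 169 in the other Normal libraries. Of 13 RPE markers, 8 fell in PVR and 0 rose, with a summed level of 870272 to 942001 in Normal and 613985 to 670908 in PVR. None was at 0, but Best1, a chloride channel used to define RPE, reached only 7.56 to 22.8 in any library. Of 18 macrophage and microglia markers, 16 rose and 1, Csf1r, fell, and none was at 0. Their sum without Csf1r was 780 to 1379 in Normal and 10416 to 25612 in PVR. Of 12 fibroblast and stromal markers, 10 rose and 0 fell, and their sum went from 3268 to 7397 in Normal to 18102 to 27856 in PVR. In bulk RNA, fewer cells of a type and less RNA per cell cannot be told apart.

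Across the 10 genes the 2 ligands moved in opposite directions, 1 receptor rose and 1 fell, and 3 of the 5 binding proteins rose. Igf1, Igf2r, Igfbp2, Igfbp4 and Igfbp5 were higher in PVR, and Igf2 and Insr were lower, at an adjusted p under 0.05 in limma. Igf1r, Igfbp3 and Igfbp6 did not pass. Thus 5 of 10 were called higher and 2 of 10 lower, where 17.9% of all genes tested were called higher, 12.9% lower and 30.8% in either direction. The 3 Normal and 3 PVR values did not overlap for 8 of the 10, and 48% of all genes tested were apart in this way. The median log2 change was 0.60 over the 10 genes and -0.02 over all genes. Leaving out PVR replicate 1 took the calls of Igf1 and Igfbp5 away and left 3 called higher, and leaving out Normal replicate 1 lowered the number of all genes called lower from 2033 to 1307.

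**Figure D1:**
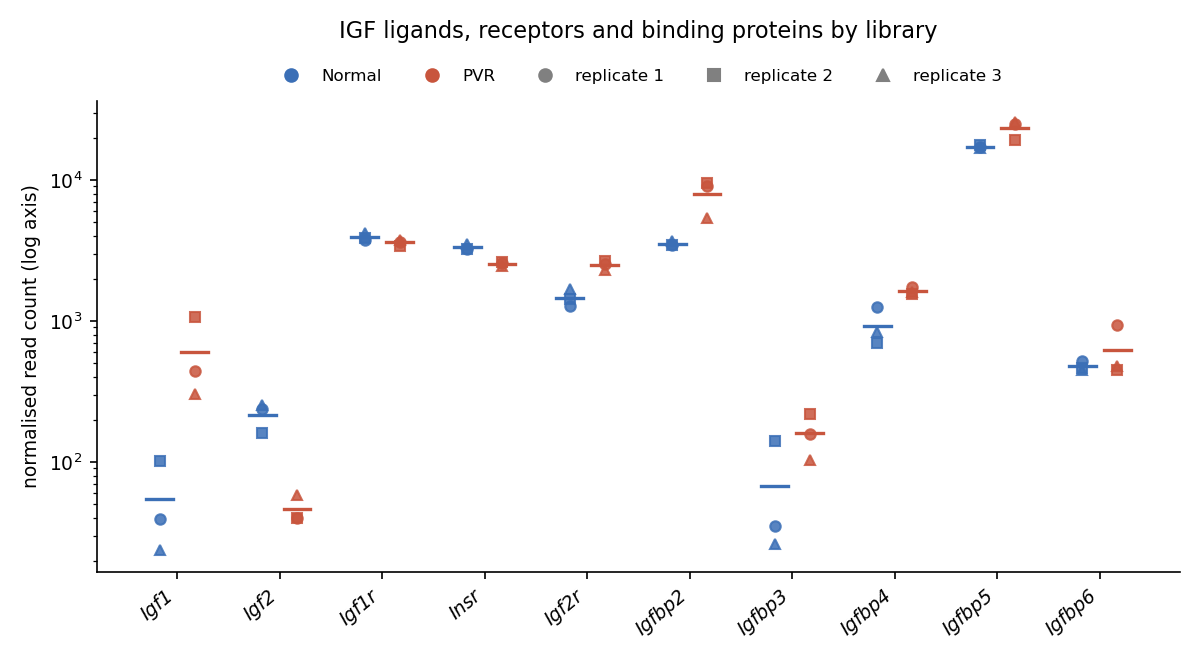
Normalised read count (log axis) of the 10 genes in each library, Normal in blue and PVR in red, with the replicate number as the symbol and the group mean as a bar. Igf1 lies between 23.6 and 101 in Normal and between 303 and 1072 in PVR, and Igf2 between 160 and 252 in Normal and between 39.9 and 58.6 in PVR.

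Igf1 showed the largest rise of the 10 genes. Its gene lies on chromosome 10, at chr10:87858265-87937042 on the plus strand (GRCm38, as are all positions here). Igf1 stood at 39.2, 101 and 23.6 normalised counts in Normal replicates 1, 2 and 3 and at 445, 1072 and 303 in PVR replicates 1, 2 and 3. Every PVR library was above every Normal library, and replicate 2 was the highest and replicate 3 the lowest in both groups. The means were 54.6 ± 40.9 and 607 ± 409 (SD, n = 3 each), an 11.1-fold ratio, and the log2 change was 3.50 (SE 0.70, limma adjusted p = 0.0154). The values rest on 26 to 109 reads per Normal library and 321 to 941 per PVR library. It was no longer called on leaving out PVR replicate 1 (adjusted p = 0.0528, log2 change 3.62) or when all 28043 genes were tested with no filter (adjusted p = 0.0536).

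Most macrophage markers rose in PVR, as Igf1 did. The median of all 18 markers was 24.5 to 47.9 normalised counts in the Normal libraries and 408 to 1134 in the PVR libraries. Within PVR, replicate 2 was again highest and replicate 3 lowest. Within Normal the order was not that of Igf1, with medians of 47.9, 38.4 and 24.5 in replicates 1, 2 and 3. Per 1000 counts of these markers, Csf1r left out, Igf1 came to 28.4, 127 and 30.2 in Normal replicates 1, 2 and 3 and to 18.2, 41.8 and 29.1 in PVR replicates 1, 2 and 3. On that scale the groups overlapped, and Normal replicate 2 was the highest of all 6 libraries. With Csf1r counted in, Igf1 came to 1.97 to 9.72 in Normal and to 14.4 to 32.3 in PVR per 1000 marker counts, and the groups were apart. Csf1r itself, the receptor for colony-stimulating factor 1, was at 9343 to 11181 in Normal and 6367 to 8235 in PVR and so made up most of the Normal sum. The summed fibroblast and stromal markers had the same order of libraries as Igf1 within both groups. Over replicates 1, 2 and 3 their sum was 5450, 7397 and 3268 in Normal and 25019, 27856 and 18102 in PVR. Fbln1 alone gave 2244 of the sum in Normal replicate 2, against 161 and 169 in Normal replicates 1 and 3. With Fbln1 left out, Normal replicate 1 had the highest sum, so the order within Normal was then not that of Igf1. The part of macrophages or of stromal cells in the rise of Igf1 was not tested.

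Of 10128 named genes with a mean of at least 100, the 3 whose course over the 6 libraries was most like that of Igf1 were Lpl, Nes and Ctsh. Likeness was the mean absolute difference in log2(value + 1) after each gene's Normal mean was taken off, and it was 0.12 for Lpl, 0.25 for Nes and 0.25 for Ctsh. Lpl, which encodes lipoprotein lipase, was at 30.9, 88.0 and 18.1 in Normal replicates 1, 2 and 3 and at 315, 958 and 216 in PVR replicates 1, 2 and 3, the same order of libraries as Igf1. Nes encodes the intermediate filament nestin and Ctsh the lysosomal protease cathepsin H.

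Igf2 moved the other way. The gene lies at chr7:142650766-142666816 on the minus strand. It was at 237, 160 and 252 normalised counts in Normal replicates 1, 2 and 3 and at 40.2, 39.9 and 58.6 in PVR replicates 1, 2 and 3. The lowest Normal library was 2.74-fold above the highest PVR library. Means were 216 ± 49.2 and 46.2 ± 10.7 (SD, n = 3 each), so that Igf2 was 4.68-fold lower in PVR, with a log2 change of -2.20 (SE 0.26, limma adjusted p = 3.046e-04). This call held in all 20 alternative analyses, with log2 changes between -2.58 and -2.08.

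Reads of Igf2 can be shared with other annotated genes. Of its exon bases, 62.8% also belong to Gm49394 on the same strand, which is not among the genes used here, and 98 bases belong to exons of the antisense gene Igf2os. No source used here says how the authors' counting treated strand and shared bases. The genes closest to Igf2 in their course over the libraries were Grik1, Asic2 and Hcn3, with a mean absolute log2 difference of 0.11, 0.14 and 0.14, all of which encode ion channels.

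Igf2 sits in an imprinted region of chromosome 7, where the maternal copy makes the non-coding RNA H19 and the paternal copy makes Igf2. The neighbouring transcripts did not move as a block. H19, at chr7:142575529-142578143, rose from 34.0, 46.3 and 24.5 in Normal replicates 1, 2 and 3 to 243, 148 and 122 in PVR replicates 1, 2 and 3 (log2 change 2.24, SE 0.33, limma adjusted p = 8.905e-04). Igf2os fell from 48.4, 15.7 and 39.0 to 2.06, 2.28 and 4.72. Its PVR values rest on 9 reads in all, and the Normal level was 11.0 times higher by summed reads (exact 95% interval 5.56 to 24.6, counting error only; limma adjusted p = 0.0028). Ins2, the insulin gene on the far side of Igf2, fell from 399, 459 and 429 to 199, 138 and 215 (log2 change -1.24, adjusted p = 8.628e-04). H19 was thus higher and Igf2, Igf2os and Ins2 lower in every PVR library than in every Normal library.

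**Figure D2:**
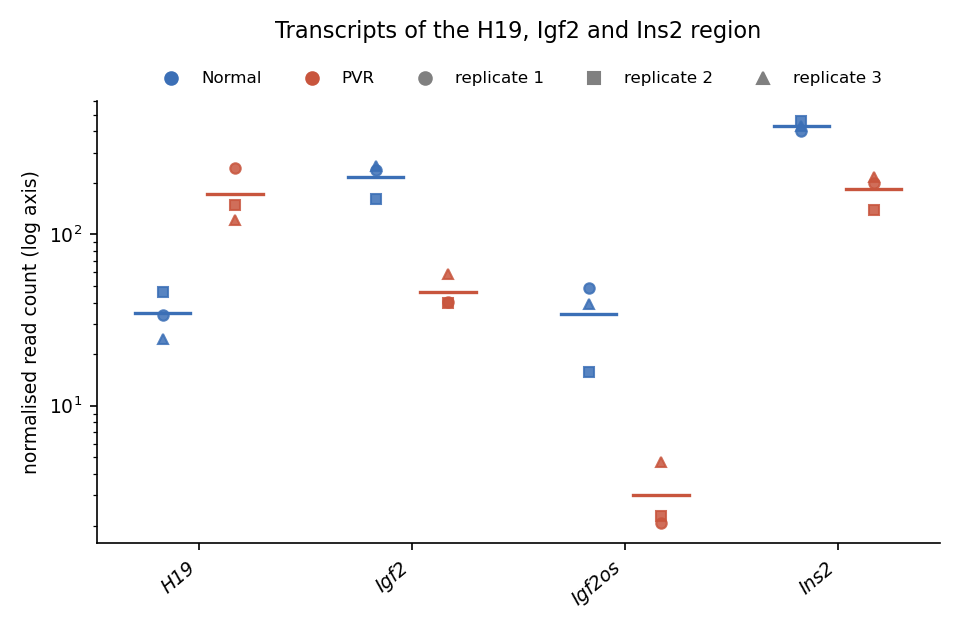
Normalised read count (log axis) of 4 transcripts of the Igf2 region of chromosome 7 in each library, Normal in blue and PVR in red, with group means as bars and replicate numbers as symbols. H19 is higher in the 3 PVR libraries (122 to 243) than in the 3 Normal libraries (24.5 to 46.3), while Igf2, Igf2os and Ins2 are lower.

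Of the 3 receptors, Igf2r rose, Insr fell and Igf1r did not pass the test. Igf1r, the receptor that carries the growth signal (chr7:67952827-68233668, plus strand), was at 3775, 3878 and 4197 in Normal replicates 1, 2 and 3 and at 3653, 3428 and 3733 in PVR replicates 1, 2 and 3. The groups were apart by a factor of only 1.01, between Normal replicate 1 and PVR replicate 3. The log2 change was -0.13, with a 95% interval of -0.35 to 0.09 (limma adjusted p = 0.341), so a fall of more than 0.35 on the log2 scale lies outside that interval.

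Insr, the insulin receptor (chr8:3122061-3279617, minus strand), was at 3246, 3227 and 3515 in Normal replicates 1, 2 and 3 and at 2568, 2609 and 2456 in PVR replicates 1, 2 and 3. All PVR libraries were below all Normal libraries, with little spread in either group. The fall was small, at -0.39 on the log2 scale (SE 0.09, limma adjusted p = 0.0121). With 2 libraries a group the call was lost: the adjusted p was 0.0769 for replicates 1 and 2 alone and 0.0777 without Normal replicate 2 and PVR replicate 3.

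Igf2r, the clearance receptor for IGF2 (chr17:12682406-12769664, minus strand), was at 1287, 1422 and 1682 in Normal replicates 1, 2 and 3 and at 2521, 2659 and 2288 in PVR replicates 1, 2 and 3. The groups were apart, and PVR replicate 3 was the lowest of its group. Means were 1464 ± 201 and 2490 ± 187 (SD, n = 3 each), a 1.70-fold rise with a log2 change of 0.77 (SE 0.12, limma adjusted p = 0.0013) that was called in all 20 alternatives. Airn, the antisense RNA known for silencing the paternal copy of Igf2r, was at 19.6 to 35.2 in Normal and 19.8 to 49.4 in PVR (adjusted p = 0.918). Per kilobase of merged exons, the ratio of Igf2r to Igf1r was 0.615 to 0.723 in the Normal libraries and 1.11 to 1.40 in the PVR libraries. Per kilobase of the longest transcript it was 0.438 to 0.515 and 0.787 to 0.996. The choice of length multiplies the ratio of every library by the same factor, so it cannot change whether the groups overlap. The ratio of Igf1r to Insr was 0.952 to 0.984 in Normal and 1.08 to 1.24 in PVR. No test was made of these ratios.

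**Figure D3:**
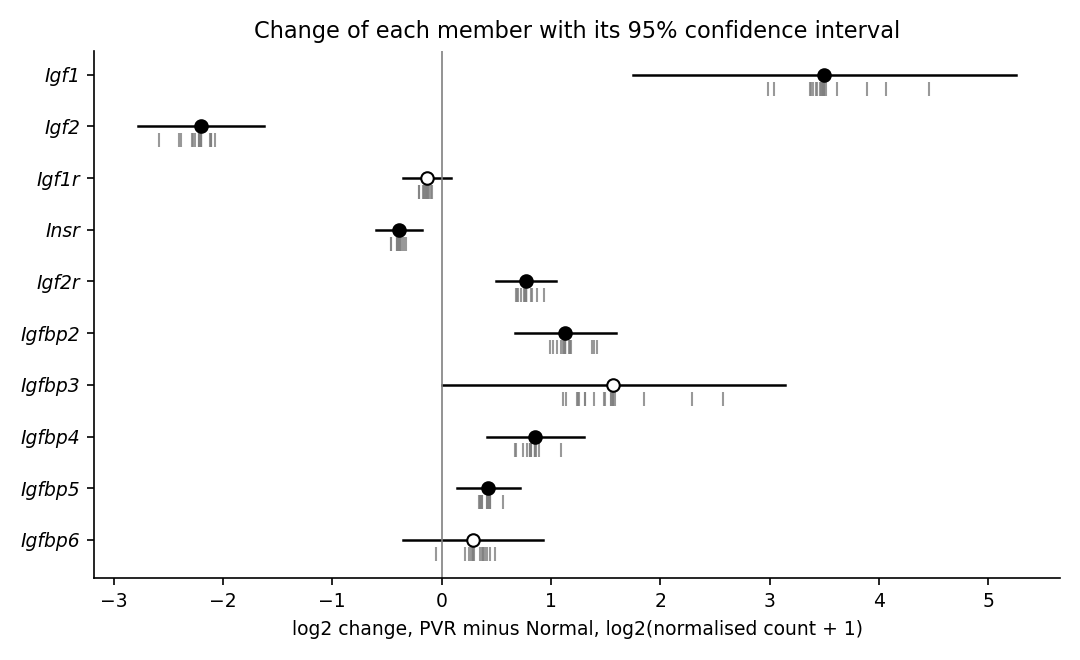
Log2 change of each of the 10 genes, PVR minus Normal, as a point with its 95% interval, filled where limma called the gene and open where it did not. Grey ticks under each point are the 20 alternative analyses. Igf1 has the widest interval and Insr lies on the negative side with a change of -0.39, while the ticks of Igfbp6 reach below 0.

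Igfbp2 had the largest rise among the binding proteins that were called. The protein binds IGF2 more tightly than IGF1 and also attaches to integrins. Its gene lies at chr1:72824503-72852474 on the plus strand and stood at 3440, 3475 and 3691 in Normal replicates 1, 2 and 3 and at 9063, 9472 and 5415 in PVR replicates 1, 2 and 3. The Normal libraries lay close together, and PVR replicate 3 was well below the other PVR libraries but above all Normal ones. Means were 3535 ± 136 and 7983 ± 2234 (SD, n = 3 each), a 2.26-fold rise (log2 change 1.13, SE 0.20, limma adjusted p = 0.0036) called in all 20 alternatives. Nearest to it in course were Sh3glb1, Msrb1 and Fth1, with mean absolute log2 differences of 0.07, 0.07 and 0.07. Fth1 encodes the heavy chain of the iron store ferritin and Msrb1 a selenoprotein that repairs oxidised methionine.

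Igfbp5, a binding protein that attaches to extracellular matrix, is the neighbour of Igfbp2. It lies at chr1:72857932-72874884 on the minus strand, and 5457 bases separate the ends at which the 2 genes face each other. Igfbp5 was at 17000, 17631 and 16893 in Normal replicates 1, 2 and 3 and at 24848, 19268 and 25697 in PVR replicates 1, 2 and 3. PVR replicate 2 was the lowest of its group for Igfbp5 and the highest for Igfbp2, so the neighbours did not share an order within PVR. The rise was 1.35-fold (log2 change 0.43, SE 0.13, limma adjusted p = 0.0319) and was not called in 10 of the 20 alternatives, with adjusted p up to 0.168. Leaving out any library other than PVR replicate 2 took the call away, with adjusted p of 0.0691 to 0.107.

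Igfbp4, a binding protein that holds IGF back from its receptor, lies at chr11:99041244-99054392 on the plus strand. It was at 1246, 696 and 840 in Normal replicates 1, 2 and 3 and at 1731, 1547 and 1613 in PVR replicates 1, 2 and 3. The groups were apart, with the wider spread in Normal. The rise was 1.76-fold (log2 change 0.86, SE 0.19, limma adjusted p = 0.011), and with replicates 1 and 2 alone it was not called (adjusted p = 0.113).

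Igfbp3, the main carrier of IGF in blood, lies at chr11:7206086-7213923 on the minus strand. It was at 35.0, 140 and 26.3 in Normal replicates 1, 2 and 3 and at 158, 220 and 103 in PVR replicates 1, 2 and 3. Normal replicate 2 lay above PVR replicate 3, so the groups overlapped. The log2 change was 1.57 (SE 0.65) with a limma adjusted p of 0.118. With the replicate number as a block the adjusted p was 0.00461, and without Normal replicate 2 it was 9.63e-04, with a log2 change of 2.29. As for Igf1, replicate 2 was the highest and replicate 3 the lowest in both groups.

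Igfbp6, a binding protein that prefers IGF2, lies at chr15:102144362-102149511 on the plus strand. It was at 522, 465 and 451 in Normal replicates 1, 2 and 3 and at 939, 448 and 477 in PVR replicates 1, 2 and 3. Only PVR replicate 1 lay above the Normal libraries. The log2 change was 0.29, with a 95% interval of -0.35 to 0.93 (limma adjusted p = 0.464), and without PVR replicate 1 it was -0.050.

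Counted per kilobase of merged exons, so that genes can be set side by side, the family spanned a 519-fold range of mean levels in Normal and a 536-fold range in PVR. In the Normal libraries the order was Igfbp5 (mean 2860 normalised counts per kilobase), Igfbp2 (1914), Igfbp6 (431), Insr (242), Igf1r (235), Igfbp4 (210.0), Igf2r (157), Igf2 (37.8), Igfbp3 (21.4) and Igf1 (5.51). Neighbours from Insr to Igf2r overlapped in their 3 libraries, as did neighbours from Igf2 to Igf1, and the other neighbours were apart. In PVR the order was Igfbp2 (4322), Igfbp5 (3875), Igfbp6 (559), Igfbp4 (369), Igf2r (267), Igf1r (215), Insr (185), Igf1 (61.2), Igfbp3 (51.2) and Igf2 (8.07), and only Igfbp2 with Igfbp5 and Igf1 with Igfbp3 overlapped. Igf2 was above Igf1 in each Normal library, by 2.75 to 18.5 times per kilobase, and Igf1 was above Igf2 in each PVR library, by 2.99 to 15.5 times. With the length of the longest transcript in place of merged exons, Igfbp2 and Igfbp5 overlapped in Normal too, and in PVR Igf1r stood before Igf2r, Igf2r overlapped Insr and Igfbp6 overlapped Igfbp4.

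The 5 binding proteins together came to 5415 to 5455 normalised counts per kilobase in the Normal libraries and 8037 to 10331 in the PVR libraries. Igfbp5 made up 52.6% ± 1.2 of this sum in Normal and 42.8% ± 9.4 in PVR, and Igfbp2 35.2% ± 1.5 and 46.7% ± 9.8 (SD, n = 3 each). In PVR replicate 3 Igfbp5 was still the larger of the pair, at 53.2% of the sum. These shares depend on the length used. Per kilobase of the longest transcript, Igfbp5 made up 45.6% ± 1.1 in Normal and 35.8% ± 9.1 in PVR, and Igfbp2 43.2% ± 1.6 and 54.7% ± 9.7. Igfbp2 was then slightly the larger in Normal replicate 3, at 45.0% against 44.8%. Igfbp7, a related protein with low affinity for IGF that is not among the 10 genes, was at 5349 to 6341 normalised counts in Normal and 16893 to 21104 in PVR (log2 change 1.71, limma adjusted p = 3.593e-05). Of the 6 binding proteins with Igfbp7 included, Igfbp7 made up 47.5% ± 2.3 per kilobase of merged exons in Normal and 63.7% ± 1.0 in PVR. Igfbp5 then made up 27.7% ± 1.8 and 15.6% ± 3.6, and Igfbp2 18.5% ± 0.74 and 16.9% ± 3.3. The level of Igfbp2 thus rose, while its shares of the 6 in the Normal libraries, 17.7% to 19.1%, lay within the range of the PVR libraries, 13.3% to 19.7%.

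**Figure D4:**
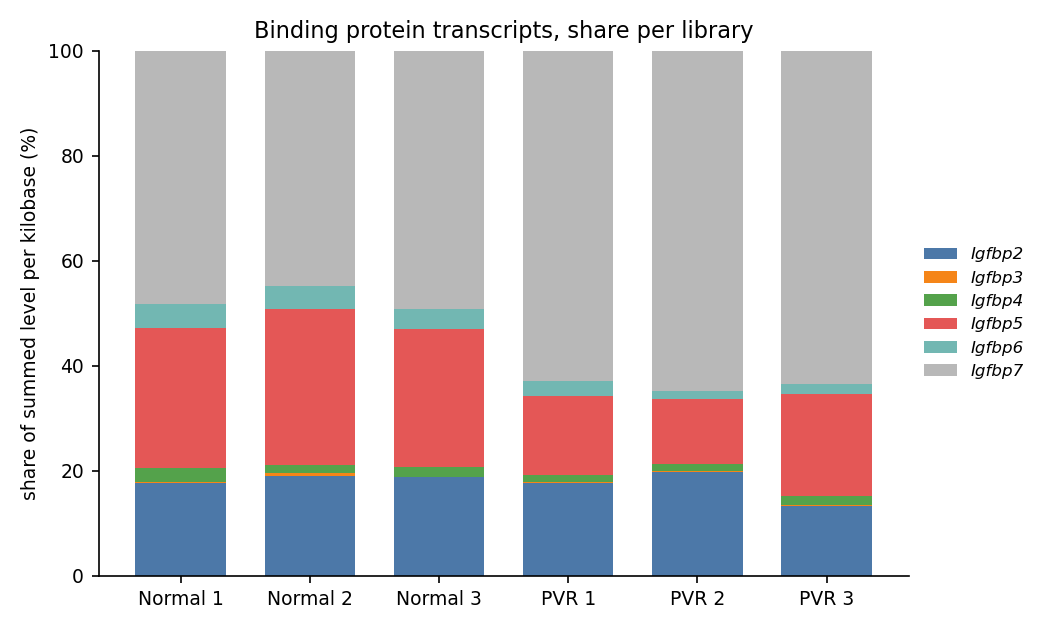
Share (%) of each of 6 binding proteins in their summed normalised count per kilobase of merged exons, 1 stacked bar per library. Igfbp7 takes 44.9% to 49.2% in the Normal libraries and 62.8% to 64.8% in the PVR libraries, and Igfbp5 takes 26.4% to 29.8% and 12.3% to 19.4%.

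The sequence before the transcription start was read for 9 of the 10 genes from RefSeq (GRCm38.p6), in 13 windows of 250 bases. A RefSeq start can lie inside a gene as GENCODE annotates it: the Igf1 window falls in an untranslated exon of other Igf1 transcripts and is not shown, and the Igf2 window shown falls in an intron of longer Igf2 transcripts. Shown are Igfbp2, Igfbp4 and Igf2r, which rose, and Igf2, which fell, each 5′ to 3′ on the strand of its gene, with motif matches in capitals. The windows are chr1:72824230-72824479 (plus strand, the first of 2 starts of Igfbp2), chr11:99040994-99041243 (plus), chr17:12769707-12769956 (minus) and chr7:142657497-142657746 (minus, the start of Igf2 with the lowest coordinate of 4).
Igfbp2: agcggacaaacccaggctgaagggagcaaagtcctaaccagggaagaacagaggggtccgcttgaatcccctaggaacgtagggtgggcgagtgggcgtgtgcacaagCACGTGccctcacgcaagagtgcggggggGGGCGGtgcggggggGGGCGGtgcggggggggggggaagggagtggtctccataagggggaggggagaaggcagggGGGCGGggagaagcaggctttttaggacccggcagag
Igfbp4: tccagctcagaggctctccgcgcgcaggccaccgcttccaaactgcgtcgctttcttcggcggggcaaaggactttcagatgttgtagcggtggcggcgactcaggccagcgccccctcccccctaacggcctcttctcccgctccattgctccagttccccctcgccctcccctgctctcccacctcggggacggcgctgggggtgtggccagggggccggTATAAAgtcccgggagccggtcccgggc
Igf2r: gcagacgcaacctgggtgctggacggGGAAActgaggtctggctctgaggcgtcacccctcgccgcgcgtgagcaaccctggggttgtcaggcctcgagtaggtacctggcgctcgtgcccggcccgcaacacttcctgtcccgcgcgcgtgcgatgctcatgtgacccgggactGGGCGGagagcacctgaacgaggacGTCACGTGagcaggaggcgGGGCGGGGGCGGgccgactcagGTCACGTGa
Igf2: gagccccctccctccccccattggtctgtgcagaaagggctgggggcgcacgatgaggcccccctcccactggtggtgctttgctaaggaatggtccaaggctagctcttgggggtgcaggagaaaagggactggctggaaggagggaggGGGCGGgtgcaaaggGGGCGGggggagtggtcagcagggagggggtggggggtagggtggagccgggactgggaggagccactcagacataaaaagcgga
The letters searched, on both strands, were chosen after the sequences were seen. They were TATAAA, known as the TATA box, and GGGCGG, known as the GC box. Also searched was GGAAA, the core of sites for NFAT factors such as the NFATc1 named in the title of the series. TGAGTCA is the site of AP-1 and CACGTG is the E-box. GTCACGTG is the form of the E-box known from lysosomal genes and holds the shorter one. The Igf2r window holds GTCACGTG at 2 places, from base 50 to 43 and from base 9 to 2 before the start, a match that 1.85% of 32851 promoter windows hold. Igf2r is the receptor that sorts lysosomal enzymes. The Igfbp4 window holds TATAAA from base 28 to 23 before the start, and 12.4% of all windows hold it. TATAAA was in 2 of the 13 windows, the other being that of Igfbp6, which was not called. The Igfbp2 window has 3 GC boxes and 1 CACGTG, the Igf2r window has 3 GC boxes and the Igf2 window has 2. A GC box was in 5 of the 13 windows, against 32.7% of all windows, and CACGTG was in 2, against 6.02%. NFAT cores were in 8 of the 13 windows, that of Igf1 inside its untranslated exon included, against 55.6% of all windows, and TGAGTCA was in 1, the other Igfbp2 window, against 4.46%. A match is a description of letters and no evidence of binding.

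The wider pathway was described by 8 lists of 87 genes, 83 of them in the tables. Their counts are to be read against the 17.9% of all genes tested that were called higher and the 12.9% called lower. Among enzymes that cut binding proteins and their inhibitors, 2 of 5 tested genes rose and 0 fell. Htra1, a secreted protease known to cut IGFBP5, was at 602, 977 and 810 in Normal replicates 1, 2 and 3 and at 6135, 7523 and 4341 in PVR replicates 1, 2 and 3 (log2 change 2.90, limma adjusted p = 2.302e-04). Adam12, a metalloprotease that cuts IGFBP3 and IGFBP5, had 7 reads over the Normal libraries and 227 over the PVR libraries, 35.2 times more per library size (exact 95% interval 16.8 to 88.5, counting error only; limma adjusted p = 3.82e-04). Pappa, the protease of IGFBP4, reached at most 6.83 and was not tested. Stc1, an inhibitor of Pappa, was at 4.53 to 30.6 in Normal and 12.5 to 53.5 in PVR (adjusted p = 0.685).

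Of 4 other ligands, receptors and binding proteins tested, Igfbp7 rose and Ins2 fell. Without Normal replicate 2 the insulin-receptor-related gene Insrr was also called, which made 2 higher. Of the 3 RNA-binding proteins named for Igf2 mRNA, Igf2bp1 fell from 1145 to 1485 in Normal to 481 to 671 in PVR (log2 change -1.13, limma adjusted p = 5.581e-04). Igf2bp2 was at 22.7, 50.0 and 39.9 in Normal replicates 1, 2 and 3 and at 174, 98.0 and 67.1 in PVR replicates 1, 2 and 3 (log2 change 1.53, adjusted p = 0.0186). This call was lost without Normal replicate 1, PVR replicate 1 or PVR replicate 2 (adjusted p of 0.066, 0.0641 and 0.0523). Igf2bp3 was not called.

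Among adaptors of the receptors and their inhibitors, 5 of 14 tested genes rose and 0 fell, with a median log2 change of 0.46. Irs1, which docks on the activated IGF1 and insulin receptors, was at 147, 138 and 149 in Normal replicates 1, 2 and 3 and at 283, 363 and 424 in PVR replicates 1, 2 and 3 (log2 change 1.28, limma adjusted p = 6.288e-04). Of its exon bases, 30.9% also belong to Gm9747 on the opposite strand, which is not among the genes used here, and the use of strand in counting is not known. Enpp1, known as an inhibitor of the insulin receptor, rose from 28.1 to 51.9 in Normal to 190 to 413 in PVR (log2 change 2.73, adjusted p = 3.82e-04). Ptpn1, a phosphatase that switches these receptors off, rose by 0.65 and the scaffold Rack1 by 0.74 on the log2 scale, with Socs2 as the remaining called gene. Irs2, more abundant than Irs1, was at 4401 to 12367 in Normal and 6566 to 12027 in PVR (adjusted p = 0.744). Grb10, an imprinted adaptor that dampens the receptors, was at 2044 to 2376 and 1921 to 2573 (adjusted p = 0.798).

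In the PI3K, AKT and mTOR list 5 of 24 genes rose and 3 fell, around a median of 0.01, shares close to the 17.9% and 12.9% of all genes tested, so these counts say nothing particular about the list. Mtor, the kinase at the core of the growth pathway, fell from 5654, 5698 and 6468 in Normal replicates 1, 2 and 3 to 2333, 2469 and 3399 in PVR replicates 1, 2 and 3 (log2 change -1.14, limma adjusted p = 5.007e-04). Eif4ebp1, a repressor of translation that MTOR phosphorylates, rose from 20.4 ± 7.27 in Normal to 127 ± 48.1 in PVR (mean ± SD, n = 3 each), a log2 change of 2.57 with a limma adjusted p of 0.00116. Inpp5d, a lipid phosphatase mainly of blood cells, rose from 11.8 to 38.1 in Normal to 414 to 1125 in PVR (log2 change 4.89, adjusted p = 5.911e-04). Of the 18 macrophage and microglia markers given above, 16 also rose and 1, Csf1r, fell. The part of macrophages in the rise of Inpp5d was not tested. Akt1 rose by 0.49 and Pik3cb fell by 0.44 on the log2 scale. Foxo1 and Foxo6 were the remaining genes that rose, and without Normal replicate 1 or PVR replicate 1 they were not called, which left 3 higher.

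Among 12 targets of the FoxO factors, which AKT holds out of the nucleus, 2 rose and 0 fell, and the share that rose was close to the 17.9% of all genes tested. Fbxo32, a ubiquitin ligase, rose from 116 to 130 in Normal to 412 to 604 in PVR (log2 change 2.04, limma adjusted p = 6.051e-05), and Gadd45a, a stress gene, from 86.1 to 101 to 223 to 533 (1.69, adjusted p = 0.00524). With the replicate number as a block 2 targets, Sesn3 and Pik3ip1, were also called lower. Leaving out a library, 1 target was called lower without Normal replicate 2 (Cited2) and 1 without PVR replicate 3 (Sesn3).

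Of 5 tested genes of the growth hormone axis, which drives Igf1 in liver, Jak2 rose by 0.57 (limma adjusted p = 0.00679) and Stat5b fell by 0.56 (adjusted p = 0.00333) on the log2 scale. Ghr, the growth hormone receptor, was at 66.0, 114 and 69.8 in Normal replicates 1, 2 and 3 and at 122, 131 and 110 in PVR replicates 1, 2 and 3 (adjusted p = 0.113), and without Normal replicate 2 it was called higher (adjusted p = 0.0357).

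In the list of imprinted genes 5 of 10 rose and 2 fell, with a median log2 change of 0.66. Besides H19, Plagl1 rose from 176 ± 28.0 in Normal to 683 ± 208 in PVR (mean ± SD, n = 3 each), a log2 change of 1.92 with a limma adjusted p of 3.889e-04. Plagl1 encodes a zinc finger factor known to act on other imprinted genes. The neighbours Dlk1 and Meg3, of which the first is made from the paternal and the second from the maternal copy, both rose, by 1.76 and 2.02 on the log2 scale. Ndn, which encodes necdin, rose by 1.24 (adjusted p = 3.261e-04). Igf2os fell as given above, and Peg3 fell by 0.36 (adjusted p = 0.0345). Peg3 was not called on leaving out Normal replicate 2, Normal replicate 3, PVR replicate 1 or PVR replicate 2, each of which left 1 gene lower.

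**Figure D5:**
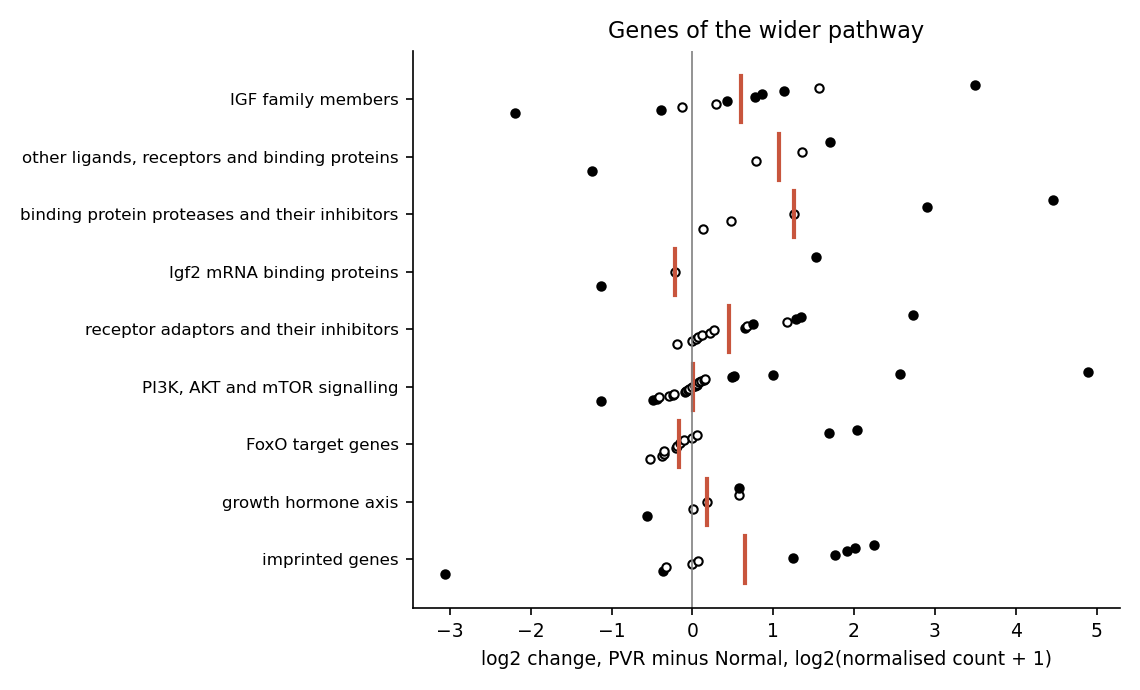
Log2 change, PVR minus Normal, of each tested gene in the 9 lists, filled where limma called the gene and open where it did not, with the list median as a red bar. The median of the PI3K, AKT and mTOR list lies at 0.01, and the 10 IGF genes spread from -2.20 (Igf2) to 3.50 (Igf1).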

How the data were processed

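PolyA RNA of primary RPE cells, taken up in TRIzol per the labels, was measured in 3 Normal and 3 PVR libraries, grouped by their titles. The unit deposited is a signal: the values show that the authors divided read counts by 1 size factor per library, since 100% of them gave whole reads within 0.001. The submitters' processing notes list DESeq2 and mm10 but no role for either. Aligner, counting program and use of strand: not given in the sources used here.

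Main test: limma 3.58.1 (R 4.3.3), trend and robust, on log2(value + 1), which understates changes of low genes, for 15766 genes passing filterByExpr (minimum count 10) on the recovered reads, with no replicate block. P-values were adjusted by Benjamini-Hochberg over all of them, threshold 0.05. Count tests on the recovered reads called 4706 genes (edgeR 4.0.16, quasi-likelihood, 4682 of them among the 4858 of limma) and 4824 genes (DESeq2 1.42.0). In 1 simulation with 15463 genes limma recovered 13.4% of changes of 1.5-fold, 56.7% of those of 2-fold and 90.9% at 4-fold. Of its 115 calls 8 were false. The simulation changed a much smaller share of genes than the 30.8% called here, so its rates do not carry over to this comparison. Deviations from the group means correlated weakly between same-numbered libraries (0.206, 0.195 and 0.179), and other pairs lay below 0. Such deviations sum to 0 within a group, so positive values for some pairs make the others negative on average. The labels do not pair the libraries, and pairing was not tested. No libraries were duplicates (chi-square per gene at least 19.9).

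Positions and lengths are from GENCODE M21. The 10 genes and the lists were chosen with earlier results of these data known, so no list was tested. Of each list, up to 4 called genes with the smallest p were named, plus Igfbp7, Pappa, Stc1, Irs1, Irs2, Grb10, Igf2bp2, Ghr and H19, and other genes after their values were seen. The rule also named 1 gene that is not reported here. Of the names, 26 are dates made by a spreadsheet (0.102% of reads) and are not named. Counting intervals are exact (95%) and cover counting error only. Tables and figures were made in Python 3.11.15 (numpy 2.4.6, pandas 2.3.3, matplotlib 3.10.9, scipy 1.17.1).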

Additional observations from a re-analysis of the deposited data

How the results depend on the processing

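The 20 alternatives were 3 other tests (edgeR, DESeq2, limma-voom), 3 other scalings, 2 pseudocounts, 2 filters, a replicate block, limma without trend, each library left out, and 2 reduced sets of libraries. Igf2, Igf2r and Igfbp2 kept their direction and call in all 20. Igf1r and Igfbp6 were called in none, and of the 10 genes only Igfbp6 turned in direction. The genes called lower ranged from 1307 (without Normal replicate 1) to 2026 when a library was left out, and those called higher from 2193 to 2844. Among the 10 IGF genes the number higher ranged from 3 to 5 on leaving out a library, and with replicates 1 and 2 only it was 3. The number lower was 1 with replicates 1 and 2 only and 1 without Normal replicate 2 and PVR replicate 3, where fewer samples entered. With the replicate block 3079 genes were higher and 2249 lower, 6 IGF genes were higher with Igfbp3 added, and no other of their calls changed. In the lists the block added Socs3 to the adaptors called higher (6) and Foxo4 to the PI3K, AKT and mTOR genes called lower (4), beside the FoxO targets given above. Signs that turned were all of genes not called. On leaving out a library Igfbp6 ranged from -0.050 to 0.48, Stc1 from -0.32 to 0.93, Irs2 from -0.15 to 0.59 and Grb10 from -0.052 to 0.16 on the log2 scale. Stc1 was -0.098 with replicates 1 and 2 only, and Grb10 was -0.016 and -0.024 when scaled to library totals in edgeR and limma. The cause was not tested. Scaling to totals moved the median of all genes to -0.09, and Igfbp5 was then not called (adjusted p = 0.0681 in limma). Depth limits the values of Pappa, Adam12 in Normal and Igf2os in PVR, which rest on few reads.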
